A study of Mus musculus with 20 samples.

Results

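Whole kidneys of TERT KO/KO mice and of their TERT WT/WT littermates were compared after injury with adriamycin (ADR), over all genes, in 5 of the 20 libraries of the series. The TERT KO/KO ADR group held replicates 1 and 3, and the TERT WT/WT ADR group held replicates 1, 2 and 3. The libraries were chosen by genotype and treatment, and replicate 2 of the TERT KO/KO ADR group was set aside because 26.1% of its counts were assigned to Alb, the serum albumin gene. All mice were females on a Balb/c background (10 generations of backcrossing) aged 2 months, which received 12 mg/kg of ADR (doxorubicin) into the tail vein at day 0 and were sampled at day 18. The TERT KO/KO mice carry 2 knockout alleles of Tert, the catalytic subunit of telomerase. The knockout is constitutive, and the part of the gene that is deleted is not named in the labels or the methods. Kidneys of TERT KO/KO mice (n = 3) and TERT WT/WT mice (n = 4) that received saline served as a background, and their values are given as a description.

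ADR injures podocytes, the epithelial cells that wrap the glomerular capillaries and hold the filtration slit together. Protein then leaks into the tubule, and tubular injury, inflammation and matrix deposition follow before filtration recovers in mice that repair the lesion. Telomerase extends telomeres, and TERT also has functions that do not require telomere elongation. The comparison asks how the kidney transcriptome during the recovery period differs when endogenous TERT is missing.

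The 5 libraries held 41041208 to 48222237 counts each, and 23878 to 25991 genes had at least 1 count. Levels are given as CPM, that is, counts relative to a common library size, after TMM scaling, which corrects for the composition of the libraries. Tert had 4.83 and 2.16 CPM in TERT KO/KO ADR kidneys, against 4.30, 4.82 and 6.94 CPM in TERT WT/WT ADR kidneys (log2 fold change -0.62, SE 0.42). The ADR groups overlapped, whereas the saline groups did not. In saline, Tert had 3.36, 2.70 and 1.55 CPM in TERT KO/KO kidneys, against 4.30, 4.33, 3.53 and 3.49 CPM in TERT WT/WT kidneys. Since the deleted part of Tert (chromosome 13 of mm10, 73626911 to 73649843) is not stated, counts over the whole gene do not check the labels. The nephron was represented in every library. Lrp2, the endocytic receptor megalin of the proximal tubule, had 1060 and 1100 CPM in TERT KO/KO ADR kidneys, against 1850, 575 and 590 CPM in TERT WT/WT ADR kidneys. Umod, which marks the thick ascending limb, had 2810 and 5260 CPM against 3250, 4430 and 5070 CPM in TERT WT/WT ADR kidneys, and the collecting duct water channel Aqp2 had 829 and 387 CPM against 967, 414 and 539 CPM. Alb had 6.26 and 8.23 CPM in TERT KO/KO ADR kidneys and 11.9, 3.90 and 3.72 CPM in TERT WT/WT ADR kidneys, and the 15 hepatocyte genes tested had a median log2 fold change of 0.34, which was -0.23 without TERT KO/KO replicate 1, with none above and 2 below.

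No gene passed the edgeR quasi-likelihood test at an adjusted p of 0.05 in either direction among 18393 genes tested (0% higher and 0% lower in TERT KO/KO ADR kidneys), and the smallest adjusted p was 0.396. At an unadjusted p under 0.05, 246 genes lay higher (1.34%) and 280 lay lower (1.52%). DESeq2, run on the same libraries, called 14 genes higher (0.0761%) and 27 lower (0.147%), of which 13 of the lower genes were immunoglobulin genes. Both TERT KO/KO ADR libraries lay above all TERT WT/WT ADR libraries for 1530 genes (8.32%) and below all of them for 1524 genes (8.29%). These shares are the background for the counts given below. The lists were chosen with earlier results of these data known, so the counts within them are a description. The median log2 fold change of all genes was -0.01, and the median SE of a gene was 0.29. Without TERT WT/WT ADR replicate 1, edgeR called 8 genes higher and 5 lower. Among the higher ones were Ak4, Nccrp1, Ces1d, Def8, Slc16a9, Dmgdh and Mep1b, and the lower ones were Jchain, Igkc, Cxcl17, Hba-a2 and Igha.

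**Figure D1:**
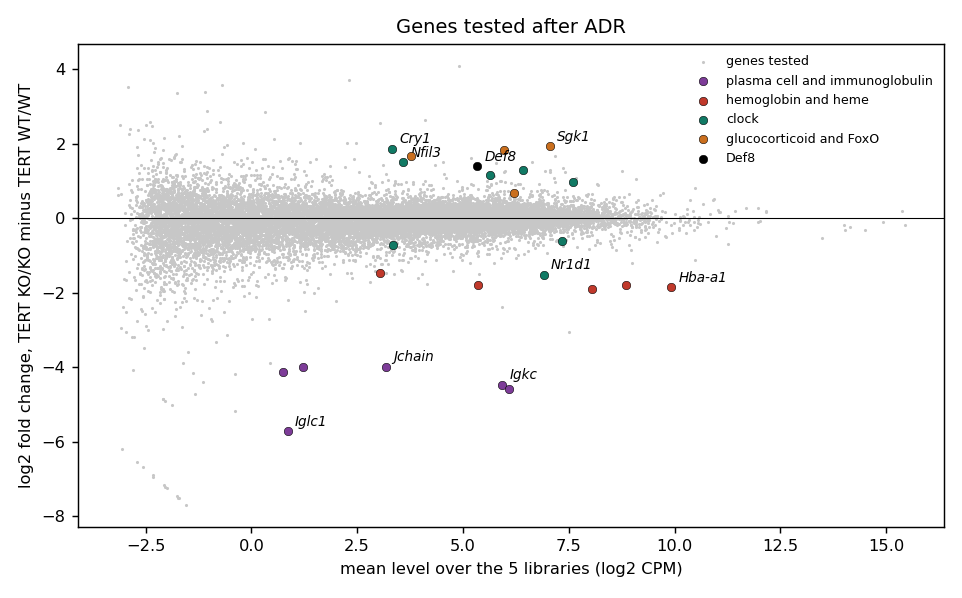
Log2 fold change of each tested gene, TERT KO/KO minus TERT WT/WT after ADR, against its mean level over the 5 libraries in log2 CPM. Coloured points are genes described in the text, and among them the immunoglobulin genes stand lowest, with Igkc at -4.47 and Iglc1 at -5.72.

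The largest differences were in genes of antibody-secreting plasma cells, which were low in TERT KO/KO ADR kidneys and high in all TERT WT/WT ADR kidneys. Igkc, the constant region of the kappa light chain, had 5.27 and 3.57 CPM in TERT KO/KO ADR kidneys, against 57.4, 132 and 105 CPM in TERT WT/WT ADR kidneys (log2 fold change -4.47, SE 0.45, edgeR adjusted p = 0.396, DESeq2 adjusted p = 1.26e-23). The groups did not overlap, and Igkc had 4.62 to 17.7 CPM over the saline libraries of both genotypes. Igha, the heavy chain of IgA, had 5.04 and 4.04 CPM against 49.7, 138 and 143 CPM in TERT WT/WT ADR kidneys (log2 fold change -4.60, SE 0.55). Jchain, which joins the units of polymeric IgA and IgM, had 0.921 and 0.907 CPM against 6.78, 18.6 and 18.1 CPM (log2 fold change -3.99, SE 0.54). The class-switched heavy chains Ighg1 and Ighg2b and the lambda constant region Iglc1, singled out after their values were seen, showed log2 fold changes of -3.99, -4.14 and -5.72. Iglc1 had 0.0460 and 0.0619 CPM in TERT KO/KO ADR kidneys, against 2.91, 1.06 and 5.02 CPM in TERT WT/WT ADR kidneys.

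Over all annotated immunoglobulin genes, the summed level was 18.2 and 23.0 CPM in TERT KO/KO ADR kidneys and 149, 326 and 313 CPM in TERT WT/WT ADR kidneys. In saline kidneys it was 21.5, 30.4 and 40.9 CPM in TERT KO/KO mice and 29, 54.7, 22.7 and 46.6 CPM in TERT WT/WT mice. The TERT KO/KO ADR kidneys therefore lay in or below the range of the saline kidneys, and the TERT WT/WT ADR kidneys lay above all of them. A list of 41 tested immunoglobulin genes was drawn up after the data were seen. Of these, 30 had TERT KO/KO ADR libraries below all TERT WT/WT ADR libraries and 33 were lower at an unadjusted p under 0.05. Both counts are a description, since a gene could pass the expression filter through the TERT WT/WT ADR libraries alone. Immunoglobulin genes with a count numbered 39 and 32 in TERT KO/KO ADR libraries, against 92, 106 and 126 in TERT WT/WT ADR libraries. Segments of immunoglobulin genes are near-identical in part, so that the split of reads among single V genes is uncertain. In bulk tissue, fewer plasma cells and less antibody RNA per cell cannot be told apart. Markers of B cells before antibody secretion overlapped between the groups. Ighm, the heavy chain of IgM, had 4.97 and 13.2 CPM in TERT KO/KO ADR kidneys, against 12.7, 24.7 and 18.0 CPM in TERT WT/WT ADR kidneys, and Cd79a, part of the B cell receptor, had 0.115 and 0.433 CPM against 0.681, 0.865 and 0.385 CPM. Of 12 B and plasma cell genes tested, 6 lay below and none above, with a median log2 fold change of -1.11. This median was -0.55 without TERT KO/KO replicate 1, -2.45 without TERT KO/KO replicate 3 and -3.99 over the members with a mean of at least 1 CPM. Of 19 T and NK cell genes none separated the groups in either direction, and their median of -0.05 was 0.48 without TERT KO/KO replicate 1 and -1.40 without TERT KO/KO replicate 3.

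Genes of red blood cells were also lower in TERT KO/KO ADR kidneys. Hba-a2, an alpha globin gene, had 94.0 and 106 CPM in TERT KO/KO ADR kidneys, against 288, 380 and 456 CPM in TERT WT/WT ADR kidneys (log2 fold change -1.91, SE 0.28, DESeq2 adjusted p = 7.85e-09). Its near-identical copy Hba-a1 had 440 and 309 CPM against 917, 1250 and 1930 CPM (log2 fold change -1.86, SE 0.42), and the beta globin gene Hbb-bs had 238 and 136 CPM against 406, 683 and 847 CPM (log2 fold change -1.79, SE 0.43). Reads that fit both alpha globin genes may have been assigned to either. Alas2, the erythroid enzyme that starts heme synthesis, and Hbb-bt, another adult beta globin gene, had log2 fold changes of -1.80 and -1.48. Of 7 erythroid genes tested, 5 lay below and none above, and the median was -1.80. One saline library reached the same levels, since Hba-a1 had 1260 CPM in TERT KO/KO saline replicate 2 and 258 to 527 CPM in the other saline libraries.

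**Figure D2:**
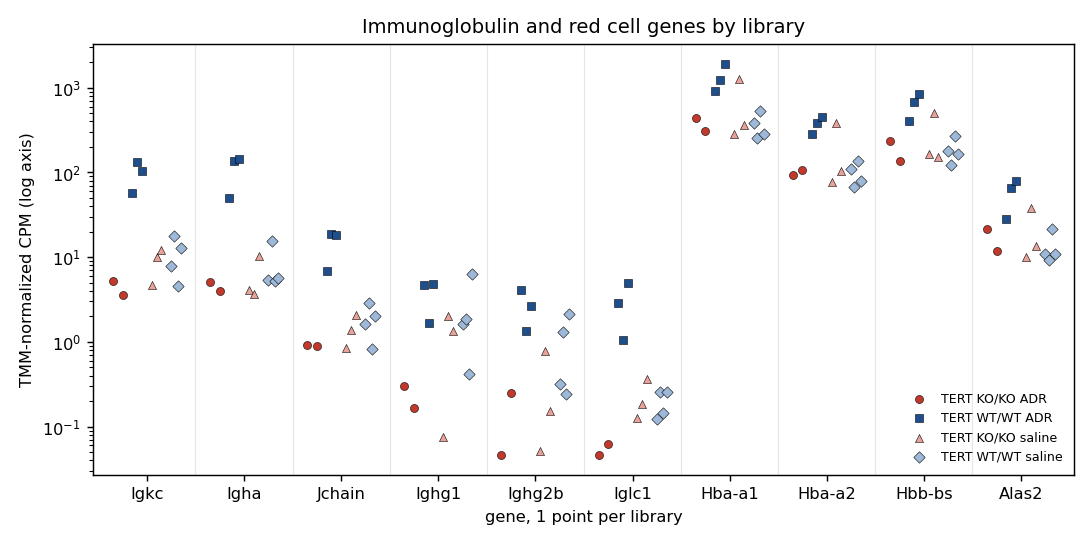
TMM-normalized CPM of immunoglobulin and red cell genes on a log axis, 1 point per library, for the ADR and saline groups of both genotypes. TERT KO/KO ADR libraries sit within or below the range of saline libraries for Igkc, Igha and Jchain, and TERT WT/WT ADR libraries sit above them.

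Clock genes stood apart in both directions. In the mammalian circadian clock, CLOCK and ARNTL activate genes with an E-box, among them those of the PER and CRY proteins, which repress their own activators. The REV-ERB repressors act in another loop through an element of their own, and NFIL3 represses D-box genes. Of 19 clock genes tested, 6 lay above and 3 below without overlap, beside 8.32% above and 8.29% below over all genes. All 9 of these clock genes had an unadjusted p under 0.05. The list was chosen with earlier results of these data known, so its excess over all genes is not an independent result. The median log2 fold change of the list was 0.37, against 0.76 without TERT WT/WT replicate 1 and 0.23 without TERT WT/WT replicate 2, and it was 0.04 in saline kidneys.

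Nfil3, the D-box repressor, had 20.2 and 19.0 CPM in TERT KO/KO ADR kidneys, against 5.74, 7.02 and 8.06 CPM in TERT WT/WT ADR kidneys (log2 fold change 1.5, SE 0.20, DESeq2 adjusted p = 6.84e-06). Cry1, a repressor of CLOCK and ARNTL, had 22.5 and 13.3 CPM against 3.69, 4.2 and 6.78 CPM (log2 fold change 1.87, SE 0.35). For both genes the TERT KO/KO ADR kidneys stood above all other libraries. Over the saline kidneys of both genotypes Nfil3 had 3.29 to 6.90 CPM and Cry1 3.10 to 5.37 CPM. Nr1d1, which encodes the repressor REV-ERB alpha, went the other way, with 58.2 and 54.9 CPM in TERT KO/KO ADR kidneys, against 210, 147 and 130 CPM in TERT WT/WT ADR kidneys (log2 fold change -1.52, SE 0.26). Its saline levels were 204 to 259 CPM in TERT KO/KO mice and 237 to 264 CPM in TERT WT/WT mice, so that the TERT KO/KO ADR kidneys were the lowest of all 12 libraries. Nr1d1 shares 1075 bases at its end with Thra on the opposite strand, and the strand setting of the counts is not stated. Thra itself had a log2 fold change of -0.15.

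Further clock genes without overlap, named after their values were seen, were Per2 (1.15), Per1 (1.29) and Usp2 (0.98) on the higher side and Bhlhe41 (-0.72) and Bhlhe40 (-0.62) on the lower side, given as log2 fold changes. Per1, a fast-responding member of the PER family, had 140 and 126 CPM in TERT KO/KO ADR kidneys, against 41.9, 29 and 92.2 CPM in TERT WT/WT ADR kidneys. Per2 had 85.6 and 62.7 CPM against 42.1, 24.6 and 33.4 CPM. The labels do not give the hour at which each kidney was collected. In a fit of 12 libraries that also held the saline groups, edgeR called Nfil3, Cry1 and Nr1d1. That fit estimates 1 spread per gene over all 12 libraries, so its calls do not rest on the ADR mice alone. The difference between the genotypes after ADR less that after saline was 1.86 for Nfil3 (SE 0.30, edgeR adjusted p = 0.0926) and -1.38 for Nr1d1 (SE 0.24, adjusted p = 0.118), and no gene of 19023 passed the threshold in that test, although 2285 had an unadjusted p under 0.05.

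Promoter stretches of clock genes without overlap are printed to show the elements named above. They come from RefSeq (build GRCm38.p6), in which 16 of the 19 clock genes had a promoter window of 250 bases before to 50 after the start. Capitals mark the E-box CACGTG in Cry1, Per1 and Bhlhe41, and in Nfil3 the element TAGGTCA of the REV-ERB repressors, read on the other strand.
Cry1 (chr10:85185085-85185138, minus strand): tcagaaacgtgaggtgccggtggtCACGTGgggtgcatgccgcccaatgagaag
Per1 (chr11:69098759-69098812, plus strand): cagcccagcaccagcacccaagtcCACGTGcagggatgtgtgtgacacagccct
Bhlhe41 (chr6:145865544-145865597, minus strand): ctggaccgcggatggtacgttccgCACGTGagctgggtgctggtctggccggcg
Nfil3 (chr13:52981040-52981075, minus strand): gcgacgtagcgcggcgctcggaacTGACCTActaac
The E-box is its own reverse complement and was found in 6 of 21 clock promoters, from 5 genes, against 7.15% of all 32851 promoters. TAGGTCA, searched on both strands, was found in 2 of the 21, those of Nfil3 and Arntl, against 2.61% of all promoters. The D-box TTANGTAA, searched on both strands, was in 1 of the 21, that of Per3, against 2.32%. A match marks letters in a window, not a bound site. Of the 3 E-box genes printed, Cry1 and Per1 lay higher and Bhlhe41 lower.

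**Figure D3:**
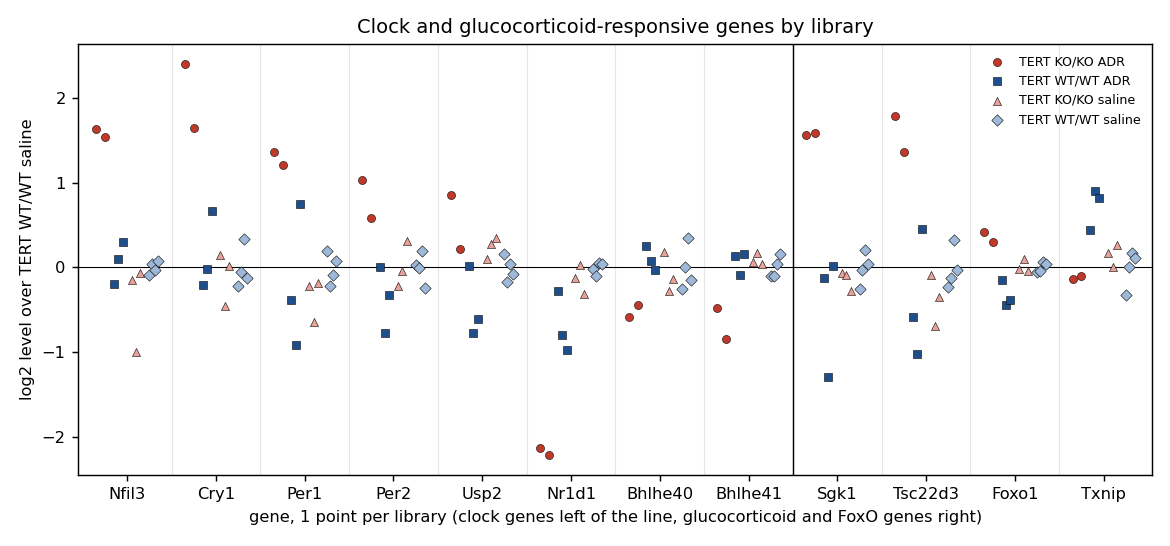
Log2 level of clock genes and of glucocorticoid and FoxO genes relative to the mean of TERT WT/WT saline, 1 point per library. Both TERT KO/KO ADR points lie above all TERT WT/WT ADR points for Nfil3, Cry1 and Sgk1 and below them for Nr1d1 and Txnip.

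Among 16 genes that respond to glucocorticoids or FoxO factors, 11 had a positive log2 fold change and 5 a negative one. Sgk1, a kinase that raises sodium uptake in the distal nephron, had 236 and 241 CPM in TERT KO/KO ADR kidneys, against 73.6, 32.9 and 81.1 CPM in TERT WT/WT ADR kidneys (log2 fold change 1.93, SE 0.38, DESeq2 adjusted p = 0.00263). Tsc22d3, the glucocorticoid-induced leucine zipper GILZ, had 126 and 94.2 CPM against 24.5, 18.1 and 50.2 CPM (log2 fold change 1.83, SE 0.43). Foxo1, a transcription factor held in check by insulin signaling, had 99.8 and 91.7 CPM against 67.2, 55 and 57.0 CPM (log2 fold change 0.68, SE 0.16). The saline kidneys of both genotypes had 66.1 to 92.4 CPM of Sgk1, so that the 2 TERT KO/KO ADR kidneys stood above all other libraries. Of 16 genes of the list, 8 lay above and 1 below, with a median log2 fold change of 0.61, and Per1 counts in both lists. Zbtb16 and Foxo3 lay among the higher ones at 1.66 and 0.71, and Txnip, a thioredoxin inhibitor, was the lower one with 260 and 266 CPM against 388, 533 and 506 CPM in TERT WT/WT ADR kidneys. Zbtb16, Foxo3 and Txnip were named after their values were seen.

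Of 22 immediate early genes, 4 lay above and none below. Dusp1, a phosphatase that switches off MAP kinases, had 89.8 and 103 CPM in TERT KO/KO ADR kidneys, against 26.0, 28.6 and 67.5 CPM in TERT WT/WT ADR kidneys (log2 fold change 1.24, SE 0.42). The nuclear receptors Nr4a1 and Nr4a3 showed log2 fold changes of 1.19 and 1.34. The median of the list was 0.18, and it was -0.10 without TERT KO/KO replicate 3 and -0.18 without TERT WT/WT replicate 1.

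The mice of each genotype differed among themselves in the level of injury genes, and replicate 1 had the lower mean level in both genotypes. Lcn2, an injury protein secreted by stressed tubules, had 230 and 338 CPM in TERT KO/KO ADR kidneys, against 103, 852 and 1020 CPM in TERT WT/WT ADR kidneys. In saline kidneys it had at most 17.3 CPM. Sox9, a factor of regenerating tubule cells, had 4.37 and 11.3 CPM against 2.80, 38.5 and 25.4 CPM in TERT WT/WT ADR kidneys, and Clu, a stress chaperone, had 834 and 853 CPM against 611, 2050 and 2820 CPM. For each of the 3 genes TERT WT/WT ADR replicate 1 was the lowest of the 5 libraries and replicates 2 and 3 were the highest. Of 18 tubule injury genes none separated the groups, and the median log2 fold change of -0.34 ranged from -0.87 without TERT KO/KO replicate 3 to -0.17 without TERT WT/WT replicate 2 or 3. The mean log2 level of this list over TERT WT/WT saline was 2.13 and 2.72 in TERT KO/KO ADR kidneys and 1.48, 3.39 and 3.29 in TERT WT/WT ADR kidneys.

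Over the 14582 genes that averaged 1 CPM or more, the median absolute log2 difference was 0.276 between the TERT KO/KO ADR libraries and 0.193 to 0.358 between TERT WT/WT ADR libraries. Between the genotypes it was 0.188 to 0.328. By this measure TERT KO/KO replicate 3 with TERT WT/WT replicate 3 (0.188) was nearly level with TERT WT/WT replicates 2 and 3 (0.193). Genes that differed more than 2-fold numbered 424 in the first of these pairs and 178 in the second, the fewest of all pairs.

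The mean levels of the macrophage, NF-kB, interferon and MHC class II lists were also lowest in replicate 1 of each genotype. The mean log2 level of the macrophage and monocyte list was 0.61 and 2.08 above TERT WT/WT saline in TERT KO/KO ADR kidneys, against 1.22, 2.69 and 2.58 in TERT WT/WT ADR kidneys. Of its 25 genes, 23 had a negative log2 fold change and none separated the groups. Their median of -0.76 was -0.22 without TERT KO/KO replicate 1, -0.43 without TERT WT/WT replicate 2 and -1.79 without TERT KO/KO replicate 3. Trem2, a lipid receptor of macrophages, had 2.23 and 2.43 CPM in TERT KO/KO ADR kidneys, against 2.07, 8.97 and 10.3 CPM in TERT WT/WT ADR kidneys. The chemokine receptor Cx3cr1 and the Fc receptor Fcgr1 showed log2 fold changes of -1.41 (SE 0.63) and -1.71 (SE 0.85) with overlapping groups. Il1b, the cytokine interleukin 1 beta, did not overlap, with 0.852 and 1.28 CPM in TERT KO/KO ADR kidneys, against 1.96, 3.31 and 4.87 CPM in TERT WT/WT ADR kidneys (log2 fold change -1.67, SE 0.49). It was 1 of 2 genes below among 34 of NF-kB and cytokine response, the other being Tnfaip2 (-0.47), and the list had a median of -0.39, which was -0.03 without TERT KO/KO replicate 1 and -0.88 without TERT KO/KO replicate 3. Of 28 interferon-stimulated genes 1, the antiviral Rsad2 (-0.55), lay below (median -0.47). That median was 0.03 without TERT KO/KO replicate 1, -0.22 without TERT WT/WT replicate 2 and -1.41 without TERT KO/KO replicate 3. Of 17 complement genes 1, C2 (-0.48), lay below (median -0.29, and -0.78 to -0.10 with 1 library left out, lowest without TERT KO/KO replicate 3). The median of the MHC class II list was -0.41, but 0.43 without TERT KO/KO replicate 1 and -2.35 without TERT KO/KO replicate 3. H2-Ab1, which encodes a class II chain, had 122 and 691 CPM in TERT KO/KO ADR kidneys, against 291, 888 and 493 CPM in TERT WT/WT ADR kidneys. The neutrophil list had 1 of 9 genes below, and its median of 0.29 was -1.55 without TERT KO/KO replicate 1.

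**Figure D4:**
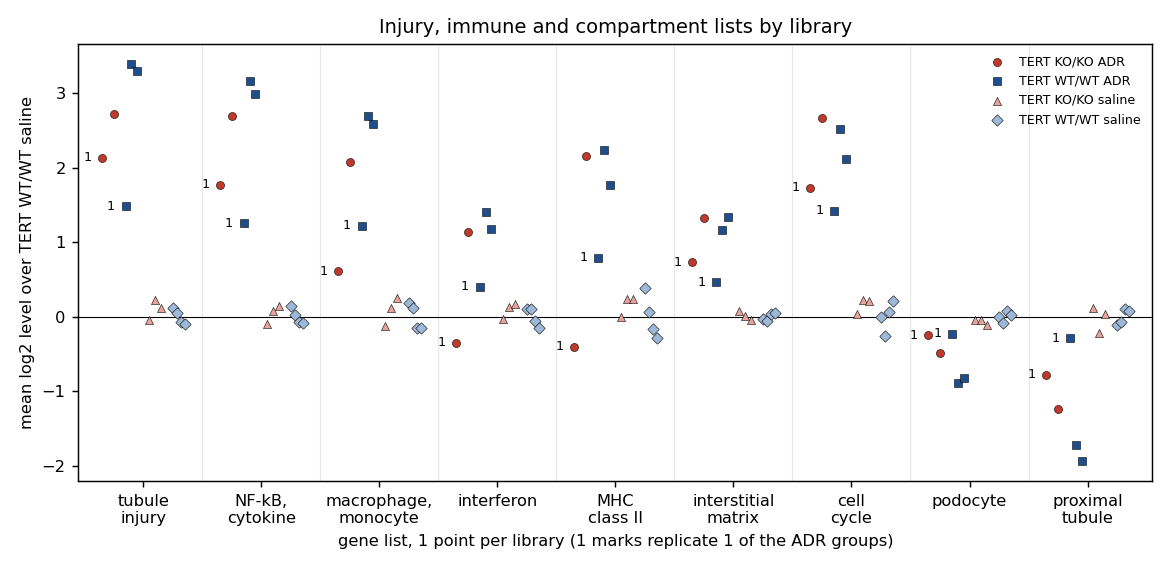
Mean log2 level of each gene list relative to TERT WT/WT saline, 1 point per library, with 1 marking replicate 1 of the ADR groups. For tubule injury the TERT KO/KO ADR points at 2.13 and 2.72 lie between the TERT WT/WT ADR points at 1.48 and 3.39, and among the lists plotted, those from tubule injury to cell cycle have replicate 1 as the lowest of its genotype.

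Podocyte genes did not separate the genotypes. Nphs1, which encodes nephrin of the slit diaphragm, had 28.4 and 16 CPM in TERT KO/KO ADR kidneys, against 33.6, 4.13 and 3.08 CPM in TERT WT/WT ADR kidneys (log2 fold change 0.71, SE 1.00). In saline kidneys it had 31.9 to 41.6 CPM. TERT WT/WT ADR replicate 1 stood above both TERT KO/KO ADR kidneys, and replicates 2 and 3 stood below them. Of 25 podocyte genes 1 lay above and 1 below, and the median was 0.13. The glomerular basement membrane list had 1 of 15 genes above and a median of 0.12.

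Of 28 proximal tubule genes 2 lay above and none below, and their median of 0.16 was 0.82 without TERT WT/WT replicate 1 and -0.12 without TERT KO/KO replicate 1. These were Slc7a13, an amino acid transporter of the late segment, at 1.70 and 0.309 CPM in TERT KO/KO ADR kidneys, against 0.288, 0.0494 and 0.0733 CPM in TERT WT/WT ADR kidneys, and Pck1, the enzyme that commits to gluconeogenesis, at 2030 and 1850 CPM against 1670, 908 and 727 CPM. Among 24 lipid oxidation genes, 6 lay above and none below (median 0.16, and 0.09 to 0.27 with 1 library left out). Cyp4a14, a fatty acid hydroxylase induced by PPAR alpha, had 892 and 697 CPM in TERT KO/KO ADR kidneys, against 525, 285 and 337 CPM in TERT WT/WT ADR kidneys (log2 fold change 1.06, SE 0.33). Cyp4a10, of the same family, had a log2 fold change of 0.69. Of 24 genes of the distal nephron 1 lay above and 3 below, and of 18 endothelial genes none separated the groups (medians -0.02 and 0.12).

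Few extracellular matrix genes separated the genotypes. Of 33 interstitial matrix genes 2 lay above and none below, with a median log2 fold change of -0.01, which was 0.25 without TERT KO/KO replicate 1 and -0.37 without TERT KO/KO replicate 3. They were Dcn, the proteoglycan decorin, at 109 and 101 CPM in TERT KO/KO ADR kidneys, against 78.5, 84.1 and 82.4 CPM in TERT WT/WT ADR kidneys, and Ccn2, a matricellular growth factor target of TGF-beta, at 276 and 245 CPM against 52.5, 75.5 and 204 CPM. Of 20 genes of fibroblasts, pericytes and mesangium 2 lay above and 1 below (median 0.08). Of 34 genes of epithelial-to-mesenchymal transition 2 lay above and 1 below, and the median was -0.06.

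Metalloproteinases, which cleave matrix, had 2 of 18 genes above and 3 below, and their median of -0.10 was -0.90 without TERT KO/KO replicate 3 and 0.12 without TERT WT/WT replicate 3. Mmp3, stromelysin 1, had 0.345 and 0.536 CPM in TERT KO/KO ADR kidneys, against 0.550, 1.58 and 2.55 CPM in TERT WT/WT ADR kidneys (log2 fold change -1.82, SE 0.70). The groups did not overlap, but TERT KO/KO replicate 3 and TERT WT/WT replicate 1 were nearly level. Mmp11, stromelysin 3, had 6.4 and 9.36 CPM against 10.8, 19.0 and 15.6 CPM (log2 fold change -0.94, SE 0.31), in a gene that overlaps the more abundant Chchd10 on the opposite strand. Mmp12, the macrophage elastase, had 2.74 and 26.9 CPM in TERT KO/KO ADR kidneys, against 2.99, 17.9 and 9.43 CPM in TERT WT/WT ADR kidneys, so that its highest library was a TERT KO/KO one. Mmp24 had 0.0690 and 0.866 CPM against 0.183, 1.11 and 1.47 CPM, and overlaps BC029722. Mmp10 had 0.644 and 0.866 CPM in TERT KO/KO ADR kidneys, against 0.550, 0.642 and 0.604 CPM in TERT WT/WT ADR kidneys, with its closest libraries nearly level, and at most 0.0310 CPM in saline libraries. Of 19 inhibitors and ADAM family genes 4 lay above and none below. Timp4, a tissue inhibitor of metalloproteinases, had 0.690 and 0.309 CPM against 0.157, 0.124 and 0.165 CPM (log2 fold change 1.72, SE 0.58).

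Genes of signaling pathways lay on both sides. Of 12 EGF receptor genes and ligands 2 lay above and 2 below (median 0.15, -0.13 without TERT KO/KO replicate 3 and -0.03 without TERT WT/WT replicate 1). Errfi1, a feedback inhibitor of the receptor, had 435 and 374 CPM against 219, 175 and 259 CPM (log2 fold change 0.90, SE 0.24), and the receptor gene Erbb3 had 79.3 and 64.1 CPM against 95.5, 104 and 99.2 CPM. Of 30 Wnt genes 5 lay above and 4 below (median -0.01), with the Wnt antagonist Dkk2 lower at -0.73. Notch genes had 1 of 19 above and 2 below (median 0.04), with the Notch target Hes1 at -0.42. Of 14 Hedgehog genes 2 lay above and none below (median 0.09).

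Of 40 cell cycle genes 33 had a positive log2 fold change, 2 lay above without overlap and none below, and the median was 0.16, the same as in saline kidneys. It was 0.55 without TERT KO/KO replicate 1 and -0.40 without TERT KO/KO replicate 3. Mcm5, a subunit of the replicative helicase, had 16.8 and 19.6 CPM in TERT KO/KO ADR kidneys, against 11.2, 12.5 and 12.3 CPM in TERT WT/WT ADR kidneys (log2 fold change 0.60, SE 0.17). The p53 and senescence list was even, with 2 of 25 genes above and 2 below (median 0.04). Trp53 had 57.8 and 72.3 CPM against 67.6, 110 and 99.1 CPM, and its proapoptotic target Bbc3 had 6.95 and 6.35 CPM against 5.50, 15.5 and 15.2 CPM. Of 19 telomerase and shelterin genes 2 lay above and none below (median -0.05). Of 18 genes of the unfolded protein response 2 lay above and 5 below. The factor Atf4 had 135 and 135 CPM in TERT KO/KO ADR kidneys, against 82.1, 96.5 and 104 CPM in TERT WT/WT ADR kidneys (log2 fold change 0.52), whereas Chac1 and Trib3, which ATF4 is known to induce, stood at -1.07 and -1.11.

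Among single genes, Def8, which has a role in lysosome positioning, had the smallest p of the comparison. It had 65.6 and 63.2 CPM in TERT KO/KO ADR kidneys, against 25.5, 25.5 and 22.7 CPM in TERT WT/WT ADR kidneys (log2 fold change 1.39, SE 0.14, edgeR adjusted p = 0.396). The difference was present without injury, as Def8 had 78.6, 64.7 and 74.5 CPM in TERT KO/KO saline kidneys and 22.2, 21.1 and 19.1 CPM in 3 TERT WT/WT saline kidneys, but 68.0 CPM in TERT WT/WT saline replicate 4. That 1 TERT WT/WT kidney lay within the range of the TERT KO/KO kidneys. Def8 lies on chromosome 8 of mm10 from 123423527 to 123463270. It overlaps Gm20388, a gene annotated on the same strand that was not tested, over 39744 bases. Reads that fit both genes may have been assigned to either. Among 125 genes tested within 5 Mb of Def8, 9 lay above and 10 below, with a median log2 fold change of -0.01.

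Akr1c18 and Gm47469 were also without overlap between the genotypes in saline kidneys. Akr1c18, a hydroxysteroid dehydrogenase that degrades progesterone, had 7.00 and 27.4 CPM in TERT KO/KO ADR kidneys, against 119, 97.1 and 52.0 CPM in TERT WT/WT ADR kidneys (log2 fold change -2.38, SE 0.65). In saline it had 17.8, 14.5 and 15.5 CPM in TERT KO/KO mice and 63.0, 74.7, 83.6 and 70.1 CPM in TERT WT/WT mice. Gm47469, a lincRNA, had 0.115 and 0.495 CPM in TERT KO/KO ADR kidneys, against 2.04, 2.30 and 1.76 CPM in TERT WT/WT ADR kidneys (log2 fold change -2.71, SE 0.63), and 0.509, 0.651 and 0.792 CPM in TERT KO/KO saline kidneys, against 2.45, 1.41, 1.31 and 1.46 CPM in TERT WT/WT saline kidneys. It lies on chromosome 13 from 74553910 to 74564256, within 5 Mb of Tert. Of 63 genes tested in that window 6 lay above and 11 below, beside 8.32% and 8.29% of all genes, and 4 had an unadjusted p under 0.05. The nearest tested neighbours of Tert, Clptm1l and Slc6a18, had log2 fold changes of -0.03 and 0.21. Akr1c18 and Gm47469 were named after their values were seen.

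**Figure D5:**
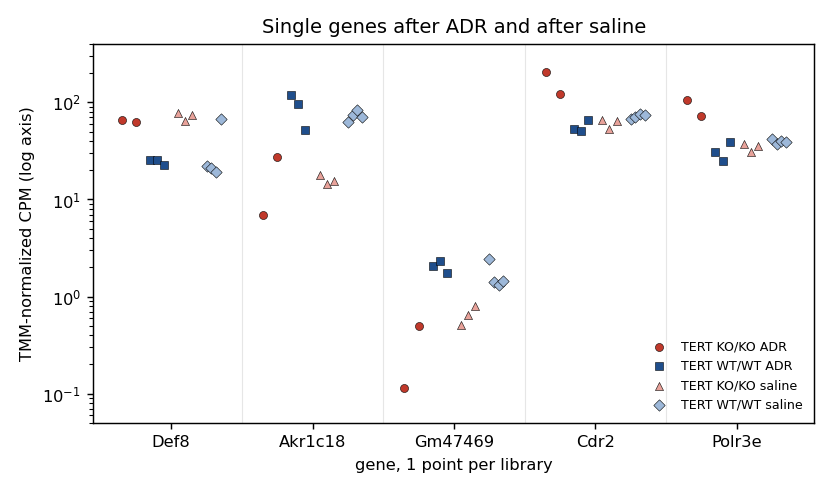
TMM-normalized CPM of single genes on a log axis, 1 point per library. Def8 and Akr1c18 separate the genotypes after ADR and, but for 1 TERT WT/WT saline library at 68.0 CPM of Def8, after saline, whereas Cdr2 and Polr3e differ in ADR kidneys.

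The remaining genes of lowest p without overlap included 2 pairs of neighbours. Cdr2 and Polr3e, next to each other on chromosome 7 and transcribed on opposite strands, lay higher. Cdr2, the antigen of paraneoplastic cerebellar degeneration, had 204 and 122 CPM in TERT KO/KO ADR kidneys, against 53.2, 51.3 and 66.3 CPM in TERT WT/WT ADR kidneys (log2 fold change 1.52, SE 0.26). Polr3e, a subunit of RNA polymerase III, had 105 and 73.0 CPM against 31.1, 24.8 and 39.4 CPM (log2 fold change 1.49, SE 0.25). All saline libraries had 53.6 to 76.2 CPM of Cdr2 and 30.5 to 41.9 CPM of Polr3e, so that the TERT KO/KO ADR kidneys stood above all the other libraries. The homeobox genes Hoxb3 and Hoxb4 on chromosome 11 lay lower, at log2 fold changes of -1.02 and -0.77.

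Hormone and mineral genes were among them too. Stc1, stanniocalcin 1, a hormone known in fish for calcium regulation, had 24.3 and 25.2 CPM in TERT KO/KO ADR kidneys, against 11.5, 12.4 and 12.9 CPM in TERT WT/WT ADR kidneys (log2 fold change 1.01, SE 0.15). Esr1, the estrogen receptor alpha, had 8.91 and 8.78 CPM against 4.06, 4.05 and 3.15 CPM, and 5.90 to 9.95 CPM in saline kidneys, so that the TERT WT/WT ADR kidneys were the low ones. Cyp24a1, which inactivates vitamin D, had 14.0 and 53.7 CPM against 106, 474 and 264 CPM (log2 fold change -3.06, SE 0.84). In the renin-angiotensin and mineral list 1 of 11 genes lay above and 1 below. Ren1, renin, had 310 and 97.8 CPM in TERT KO/KO ADR kidneys, against 149, 55.9 and 55.1 CPM in TERT WT/WT ADR kidneys, with overlap.

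The other higher genes named by the same rule were Prkag3, a regulatory subunit of AMP kinase, with a log2 fold change of 1.59, the basement membrane protein gene Hmcn1 at 1.53 and the ribosome assembly factor gene Utp20 at 0.79. The lower ones were Urah at -1.76, which acts in urate breakdown, AC149090.1 at -1.07, Rnf39 at -1.59, Slc17a4, of the phosphate transporter family, at -1.24 and the oxysterol receptor gene Gpr183 at -1.66. Gpr183 lies inside Ubac2 on the opposite strand. None of these passed the edgeR test after adjustment.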

How the data were processed

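Whole-kidney RNA was sequenced in mice of the ADR experiment, 1 library per mouse. Per the labels and the methods, the authors checked reads with FastQC, trimmed them with Trimmomatic, aligned them with STAR to mm10 and deposited unnormalized counts per gene. The counting tool, annotation and strand setting are not given in the sources used here. Symbols and coordinates were taken from GENCODE M21 (55230 of 55471 identifiers matched without version).

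The 5 libraries were fitted alone with edgeR 4.0.16 (R 4.3.3): filterByExpr by group, TMM factors, robust dispersions, the robust quasi-likelihood F test and Benjamini-Hochberg adjustment at 0.05. CPM are TMM-normalized, with saline libraries scaled to the same reference, and SE is that of the log2 fold change. List levels are means of log2(CPM + 0.1). P values test a difference against the spread between mice, and the estimate of that spread is partly shared across genes. A gene is called above or below where its groups did not overlap. "Higher" and "lower" otherwise describe values, since no gene passed.

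Genes were named as the 12 of smallest p in each direction (protein-coding, a mean of at least 1 CPM, no overlap), up to 3 per list, markers and genes the study discusses. The members and lists were chosen with earlier results of these data known. Alternatives were median-ratio factors, no filter, a filter at 1 CPM, DESeq2 1.42.0, limma 3.58.1 voom with sample weights, edgeR's newer method, a replicate block, all 12 libraries in 1 fit, the library with liver-like RNA kept, and each library left out. Leaving out both replicates 1 was added after the data were seen. The tests were tried on simulated data. Some genes are not reported here.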

Additional observations from a re-analysis of the deposited data

Results flagged for a closer look

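Def8 had 68.0 CPM in TERT WT/WT saline replicate 4, far from the 19.1 to 22.2 CPM of the other 3 libraries of that group and within the range of the TERT KO/KO kidneys. In the same group of 4, single libraries stood apart for Igha (15.7 CPM, others 5.20 to 5.73), Alas2 (21.5 CPM, others 9.16 to 10.9), Gm47469 (2.45 CPM, others 1.31 to 1.46), Rnf39 (1.46 CPM, others 1.05 to 1.11) and Nr4a3 (0.681 CPM, others 0.515 to 0.532). These are 6 of 90 genes examined, and chance would mark about 1 in 20. Replicate 2 of the TERT KO/KO ADR group was kept only in 1 alternative and had 26.1% of its counts on Alb, against at most 0.00829% in the other ADR and saline libraries.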

How the results depend on the processing

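The count of 0 genes in either direction held with median-ratio factors, a filter at 1 CPM, limma voom (630 higher and 695 lower at an unadjusted p under 0.05), the newer edgeR method and TERT KO/KO ADR replicate 2 kept. It became 9 higher and 19 lower with no filter, 14 and 27 with DESeq2, and 9 and 5 with 12 libraries in 1 fit. With both replicates 1 left out, it became 359 and 256, in a fit of 1 TERT KO/KO library that is assumed to vary like the others. Leaving out 1 library gave 0 to 8 genes higher and 0 to 5 lower, with calls only without TERT WT/WT ADR replicate 1. Genes without overlap numbered 1914 to 4479 above and 1851 to 4851 below when 1 library was left out, where fewer libraries make overlap rarer, and 950 below where replicate 2 of TERT KO/KO ADR was kept. The cause of the other shifts was not tested.

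With the replicate number as a block, 0 genes passed in either direction (259 higher and 347 lower at an unadjusted p under 0.05), and no named gene changed side. Replicates 1 and 3 form only 2 pairs, whose deviations from their group mean correlated at 0.508 and 0.377. TERT KO/KO replicate 3 correlated with TERT WT/WT replicate 2 at 0.451. With only 2 TERT KO/KO libraries, their deviations mirror each other (-1), so these values cannot decide whether mice of the same number belong together. The labels give only the replicate number.

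Many list medians rest on single libraries. With 1 library left out, the medians of 23 of 34 lists took both signs. The other 11 lists kept their sign or reached 0, with ranges of -2.45 to -0.55 for B and plasma cell, -2.07 to -1.45 for erythroid, -1.79 to -0.22 for macrophage, -0.88 to -0.03 for NF-kB, -0.87 to -0.17 for tubule injury, -0.78 to -0.10 for complement, -0.23 to -0.01 for unfolded protein response, 0.00 to 0.22 for podocyte, 0.09 to 0.27 for lipid oxidation, 0.23 to 0.76 for clock and 0.40 to 0.80 for glucocorticoid and FoxO genes.

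Log2 fold changes of genes with overlapping groups turned sign most often. With voom, Aqp2 was 0.20 and Mmp12 -0.39. With both replicates 1 left out, H2-Ab1 was 0.01, Umod 0.16 and Clptm1l 0.06. With replicate 2 of TERT KO/KO ADR kept, Urah was 5.18, Rnf39 2.05, Slc17a4 2.72, Bhlhe40 0.39, C2 0.36, Clu 0.18, Lrp2 -0.46, Mmp10 -0.16, Erbb3 0.08, Chac1 2.06, Trib3 1.60, Clptm1l 0.14 and Slc6a18 -0.36. With 1 library left out, the ranges were H2-Ab1 -2.19 to 0.32, Umod -0.60 to 0.32, Clptm1l -0.11 to 0.06, Aqp2 -0.72 to 0.36, Alb -0.13 to 0.94, Mmp12 -1.89 to 1.43 and Lrp2 -0.18 to 0.90. Depth did not limit the abundant genes, but Iglc1 in TERT KO/KO kidneys rests on 2 and 3 counts and Timp4 in TERT WT/WT kidneys on 5 to 9. The lowest levels given for Slc7a13 and Mmp24 rest on few counts too.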
